A study of Arabidopsis thaliana with 9 samples.

Results

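The IQD and TRM genes encode 2 families of plant scaffold proteins linked to microtubules, and their transcripts were measured in Arabidopsis thaliana roots with altered bHLH49, a basic helix-loop-helix transcription factor. Members were the probe sets paired with 1 gene whose annotation symbol begins with IQD or TRM and a digit. This gave 32 probe sets, 17 IQD and 15 TRM, of 38408 on the array, of which 16722 had 1 gene. Each of the 32 stood for a different gene. A further 4 probe sets paired an IQD or TRM gene with a second gene and were left out. Genes entered by name, but both families were picked from earlier results on these same log2 values. Every count, median and call below is therefore a description of these arrays and not independent evidence that the families changed.

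IQD proteins carry calmodulin-binding IQ motifs. Many of them decorate cortical microtubules, the plasma membrane or the nucleus, where they are thought to link calcium and auxin signals to the cytoskeleton and to the growth direction of cells. TRM proteins, named for a TON1 recruiting motif, bring TON1 and the FASS (TON2) phosphatase subunit to cortical microtubules, a complex that organises the cortical array and the preprophase band of dividing cells. In roots, the orientation of cortical microtubules guides cellulose deposition and so the shape of elongating cells. RefSeq lists 33 IQ-domain genes and 34 genes of the TON1 recruiting motif family, of which 17 and 14 were measured here under these symbols. The fifteenth TRM member, TRM82 (AT1G03110), shares the letters only: it is a tRNA modification gene, whose yeast namesake is a subunit of a tRNA methyltransferase. One more TON1 recruiting motif gene was annotated under another symbol and fell outside the rule. Neither family's sequences were analysed here.

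All plants were Col-0 seedlings aged 4 days, grown on Murashige and Skoog medium. The growth protocol adds kanamycin or phosphinothricin to select transgenic seeds, without saying which of these genotypes were on it. The 3 genotypes were a bHLH49 overexpressor, a bHLH49 loss-of-function mutant and wild type, with 3 arrays each, hybridised with biotin-labelled cDNA made from total root RNA. The labels speak both of roots and of root tips, and give neither the mutant allele nor the promoter that drives the overexpression. Whether each numbered repeat was a separate culture is not stated either, and the p-values therefore speak only of variation among the arrays at hand, some of which may be technical. The transcript of bHLH49 itself was not analysed here. Values are log2 expression as deposited. The 9 arrays had medians between 5.85 and 5.92, and the correlation of any array with another, taken over probe sets, was 0.988 to 0.993. Root hair genes were bright, with EXPA18 at 10.52 in the overexpressor, 10.21 in the mutant and 10.58 in wild type. The shoot markers RCA and LHCB4.1, from photosynthesis, were not at background: RCA averaged 7.68, 7.61 and 7.54 in the same order of genotypes and LHCB4.1 averaged 6.53, 6.80 and 6.53.

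Overexpression of bHLH49 was compared with wild type to ask which members follow a gain of the factor. IQD26 and IQD16 fell, and 0 members of either family rose. Members were called, that is written as risen or fallen, where limma's p-value adjusted over all 38408 probe sets was below 0.05. By that rule 2 of 17 IQD and 0 of 15 TRM probe sets fell, while 0.609% of all probe sets were called lower, 0.745% higher and 1.35% in either direction. Without adjustment, 7 IQD and 5 TRM members had a p-value below 0.05, all of them lower. The same cutoff took 13.6% of all probe sets, 7.32% as lower. The median log2 change was -0.16 for IQD and -0.11 for TRM genes, against -0.01 for all probe sets, and the TRM median was -0.17 without overexpressor replicate 1. Lower transcript per cell and fewer cells of the type that holds the transcript cannot be told apart in RNA from roots or root tips.

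IQD26 (AT3G16490) showed the largest difference of the 32 members. Its log2 values were 7.30, 7.27 and 7.28 on the overexpressor arrays, 8.10, 8.00 and 8.03 on the mutant arrays, and 8.11, 7.92 and 7.92 on the wild-type arrays. The 3 overexpressor arrays lay together below the other 6, and mutant and wild-type arrays overlapped. IQD26 averaged 7.28 ± 0.02 in the overexpressor and 7.98 ± 0.11 in wild type (SD, n = 3 each), so that it fell by 0.70 ± 0.07 on the log2 scale (SE; limma adjusted p = 0.0036). On the linear scale it fell by 38.3%. With any 1 of the 6 arrays left out the change stayed between -0.73 and -0.63, and the adjusted p between 0.0115 and 0.0247. Of the probe sets with 1 gene, 125 (0.748%) fell, and among them the fall of IQD26 was number 50 in size, near their median of -0.65.

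IQD16 (AT4G10640), also known as ABNORMAL SHOOT6, is described as a partner of the microtubule-severing protein katanin. It read 7.20, 7.10 and 7.17 on the overexpressor arrays, 7.65, 7.54 and 7.57 on the mutant arrays, and 7.57, 7.53 and 7.78 on the wild-type arrays. Again the overexpressor arrays stood below the other 6 without overlap. The fall was 0.47 ± 0.08 on the log2 scale (SE; limma adjusted p = 0.0309), and the linear value fell by 27.7%. This call was marginal: without 1 array the change lay between -0.52 and -0.39 and the adjusted p between 0.0595 and 0.119, so that it was lost in 6 of 6 refits. A fit limited to the overexpressor and wild-type arrays also lost it (adjusted p = 0.0959), as did centring each array on its median (adjusted p = 0.0533).

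**Figure D1:**
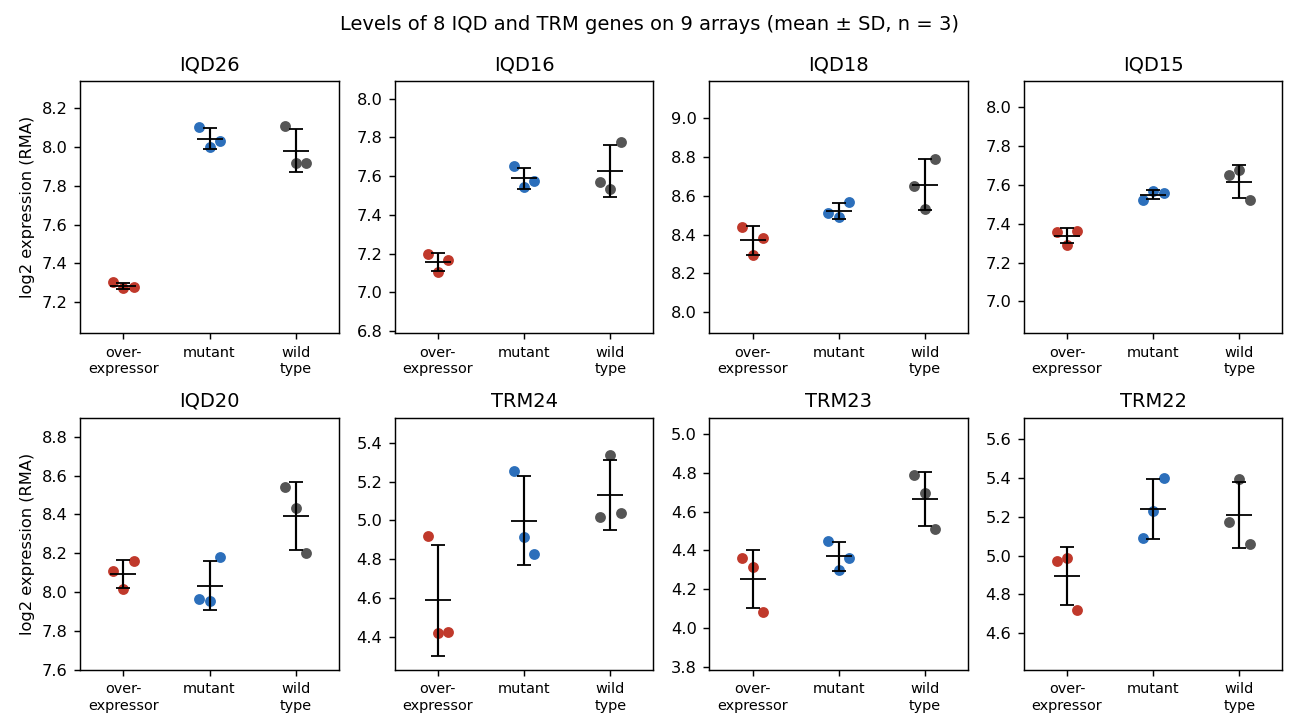
Log2 expression of 8 IQD and TRM genes on every array, with points for single arrays and black bars for the mean ± SD of 3 arrays per genotype; each panel spans the same range of log2 units. The overexpressor points of IQD26, between 7.27 and 7.30, sit below all mutant and wild-type points. Those of IQD16, IQD15, IQD18 and TRM22 are also separate from the other 6 arrays.

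IQD15 (AT3G49380) and IQD18 (AT1G01110) are close relatives of IQD16, in a group described as binding SPIRAL2 and acting downstream of auxin. They were picked for this relation after their values were seen. IQD15 read 7.36, 7.29 and 7.36 on the overexpressor arrays, 7.52, 7.57 and 7.56 on the mutant arrays, and 7.65, 7.68 and 7.52 on the wild-type arrays. IQD18 read 8.44, 8.29 and 8.38 on the overexpressor arrays, 8.51, 8.49 and 8.57 on the mutant arrays, and 8.65, 8.53 and 8.79 on the wild-type arrays. For both genes the overexpressor arrays were lowest without overlap, and neither passed the test, at -0.28 ± 0.06 (SE; limma adjusted p = 0.0754) and -0.29 ± 0.08 (adjusted p = 0.156). IQD15 did pass with eBayes trend and robust (adjusted p = 0.0487) and among the probe sets with 1 gene tested alone (adjusted p = 0.0453). It also passed above the 25th percentile of the mean level (adjusted p = 0.0458) and above the 50th (adjusted p = 0.0224). In the other 11 of 15 alternative fits IQD15 did not pass. These included all 6 refits without 1 array (adjusted p between 0.0655 and 0.233) and a fit limited to the overexpressor and wild-type arrays (0.165).

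IQD20 (AT3G51380) differed from these genes in that both altered lines read low. Its values were 8.11, 8.02 and 8.16 on the overexpressor arrays, 7.96, 7.96 and 8.18 on the mutant arrays, and 8.54, 8.43 and 8.20 on the wild-type arrays. All 6 arrays of the altered lines lay below the 3 wild-type arrays, the lowest of which was close to them. The differences from wild type, -0.30 ± 0.10 in the overexpressor (SE; limma adjusted p = 0.266) and -0.36 ± 0.10 in the mutant (adjusted p = 0.462), did not pass.

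The remaining IQD genes moved less. IQD22 stood at -0.19 ± 0.08 (SE), IQD28 at -0.17 ± 0.08, IQD29 at -0.17 ± 0.07, IQD23 at -0.16 ± 0.09, IQD32 at -0.14 ± 0.06, IQD24 at -0.13 ± 0.12 and IQD31 at -0.12 ± 0.06. IQD21, IQD30 and IQD19 lay between -0.07 and -0.04, and their adjusted p-values between 0.75 and 0.858. IQD25 and IQD27 were the only IQD genes above 0, at 0.08 ± 0.08 and 0.04 ± 0.09. IQD25 (AT4G29150) read 4.80, 4.65 and 4.96 on the overexpressor arrays, 4.74, 4.72 and 4.72 on the mutant arrays, and 4.72 on each wild-type array. IQD27 (AT1G51960) read 3.40, 3.48 and 3.48 on the overexpressor arrays, 3.72, 3.52 and 3.48 on the mutant arrays, and 3.24, 3.51 and 3.48 on the wild-type arrays. Both were dim, and arrays of the 3 genotypes overlapped for each. IQD25 held exactly the same value on 5 arrays, and IQD23 and IQD27 each on 4. Exact ties on 4 or more arrays occurred in 9.72% of all probe sets, and their zero spread within a genotype is not a measure of precision.

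**Figure D2:**
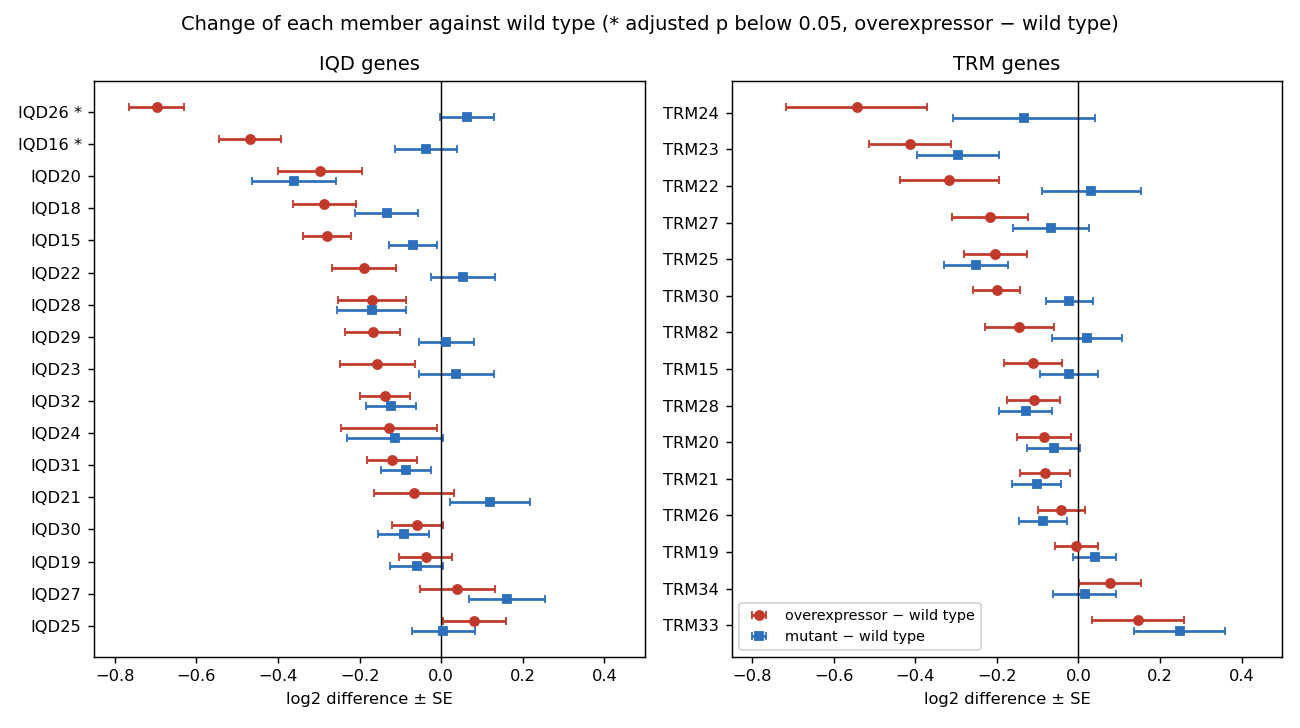
Log2 difference ± SE (x axis) of each IQD gene (left) and TRM gene (right), with red circles for overexpressor minus wild type and blue squares for mutant minus wild type. IQD26 (-0.70) and IQD16 (-0.47), marked with an asterisk, were called in the overexpressor, and 0 members were called in the mutant.

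Among TRM genes 0 were called, and the larger differences belonged to dim probe sets. TRM24 (AT5G51850) read 4.92, 4.42 and 4.42 on the overexpressor arrays, 5.26, 4.91 and 4.83 on the mutant arrays, and 5.02, 5.34 and 5.04 on the wild-type arrays. Its overexpressor arrays were below the wild-type ones, but overexpressor replicate 1 lay apart from the other 2 and among the mutant values. The difference of -0.54 ± 0.17 (SE) did not pass (limma adjusted p = 0.226), and it was -0.71 without overexpressor replicate 1.

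TRM23 (AT4G25430) read 4.36, 4.32 and 4.08 on the overexpressor arrays, 4.45, 4.30 and 4.36 on the mutant arrays, and 4.79, 4.70 and 4.51 on the wild-type arrays. Both altered lines lay below wild type without overlap, as for IQD20, and the change in the overexpressor was -0.41 ± 0.10 (SE; limma adjusted p = 0.118). TRM22 (AT1G67040) read 4.97, 4.99 and 4.72 on the overexpressor arrays, 5.09, 5.23 and 5.40 on the mutant arrays, and 5.18, 5.40 and 5.06 on the wild-type arrays. Here only the overexpressor was low, by -0.32 ± 0.12 (adjusted p = 0.307). The 3 probe sets had means below the median of every array.

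Brighter TRM genes differed by at most -0.22. TRM27 stood at -0.22 ± 0.09 (SE), TRM25 at -0.20 ± 0.08, TRM30 at -0.20 ± 0.06, and TRM15, TRM28, TRM20, TRM21, TRM26 and TRM19 between -0.11 and 0.00. TRM30 (AT5G42710) read 6.74, 6.77 and 6.84 on the overexpressor arrays, 6.96, 6.89 and 7.03 on the mutant arrays, and 7.02, 6.98 and 6.96 on the wild-type arrays. All 3 overexpressor arrays were below the other 6, and TRM30 was singled out after its values were seen (limma adjusted p = 0.18).

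TRM33 (AT1G01695) and TRM34 (AT3G24630) were the TRM genes above 0, at 0.15 ± 0.11 (SE) and 0.08 ± 0.08. TRM33 read 2.87, 2.90 and 2.90 on the overexpressor arrays, 3.02, 2.85 and 3.11 on the mutant arrays, and 2.96, 2.54 and 2.74 on the wild-type arrays. All 9 values lay below the lower quartile of every array (3.65 to 3.70), so TRM33 was close to the dimmest signals measured. TRM34 read 4.29, 4.25 and 4.47 on the overexpressor arrays, 4.32, 4.29 and 4.20 on the mutant arrays, and 4.27, 4.32 and 4.17 on the wild-type arrays, and the genotypes overlapped. The tRNA modification gene TRM82 stood at -0.15 ± 0.09. Without it the 14 scaffold TRM genes had the same median to 2 decimals in this comparison, -0.11, and 0 calls. TRM counts and medians include TRM82 unless it is said to be left out.

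As families, IQD and TRM genes leaned to one side in the overexpressor. Of 17 IQD genes 15 had a change below 0, and of 15 TRM genes 13 did (88.2% and 86.7%), against 51.8% of all probe sets. The 3 overexpressor arrays lay below the 3 wild-type arrays for 9 IQD and 7 TRM genes and above them for 0. With TRM82 left out, 12 of 14 TRM genes were below 0 and 6 had overexpressor arrays below wild type. Over all probe sets, overexpressor arrays were below wild type without overlap in 10.7% and above in 8.85%. The shares differed with level: members with a mean above the array medians were below 0 in 13 of 13 IQD and 10 of 10 TRM cases, and the dim ones in 2 of 4 and 3 of 5. Of the probe sets with 1 gene above the 50th percentile of the mean, 55.8% were below 0 and 17.0% had overexpressor arrays below wild type. Without IQD26 and IQD16, the other 15 IQD genes had a median of -0.14 and 13 below 0. Because the families were chosen with these comparisons known, the shares carry no test.

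Array by array, the median difference of the 17 IQD genes from their own wild-type means was -0.17, -0.21 and -0.15 on the overexpressor arrays, -0.01, -0.06 and -0.05 on the mutant arrays, and 0.04, -0.01 and -0.02 on the wild-type arrays. For the 15 TRM genes the medians were -0.12, -0.10 and -0.15 on the overexpressor arrays, -0.02, -0.09 and -0.06 on the mutant arrays, and 0.03, 0.01 and -0.03 on the wild-type arrays. In both families all 3 overexpressor arrays stood below the other 6. Over all probe sets the 9 such medians lay between -0.01 and 0.00. Normalization between arrays keeps those near 0, so they do not show how much a median of 15 or 17 genes varies. The lower medians against wild type were thus seen on each overexpressor array. Against the mutant, however, the TRM median was -0.024 without overexpressor replicate 3, in place of -0.0891.

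**Figure D3:**
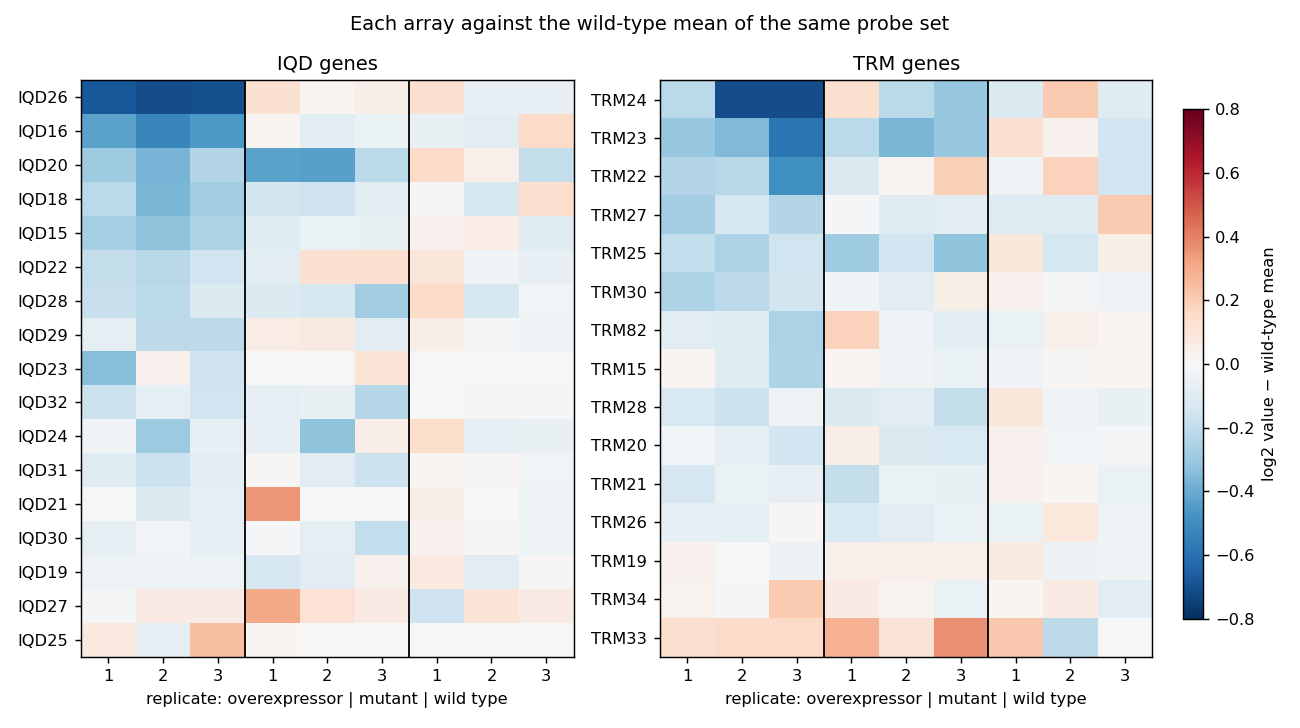
Heat map of the log2 value of each member on each array minus the wild-type mean of its probe set (blue below, red above), with IQD genes on the left and TRM genes on the right, sorted by the change in the overexpressor. Blue cells fill the overexpressor columns of the upper rows, led by IQD26, TRM24 and IQD16, and the mutant columns are blue for IQD20 and TRM23.

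The mutant was compared with wild type to ask which members follow the loss of normal bHLH49. Limma called 0 of 17 IQD and 0 of 15 TRM probe sets, in a comparison where 0.0234% of all probe sets were called. The wild-type arrays are those used above, so values of both lines against wild type share them. Without adjustment, 1 IQD and 2 TRM members had a p-value below 0.05, all lower: IQD20, TRM23 and TRM25. That cutoff took 8.44% of all probe sets (4.08% as lower), and the members' 3 of 32 is a share close to that in either direction. TRM23 stood at -0.29 ± 0.10 (SE; limma adjusted p = 0.518). TRM25 (AT5G62170) read 8.83, 8.78 and 8.87 on the overexpressor arrays, 8.75, 8.88 and 8.71 on the mutant arrays, and 9.12, 8.89 and 9.08 on the wild-type arrays. Its 6 arrays of altered lines were below the 3 of wild type, one of them by a narrow margin, and the mutant difference was -0.25 ± 0.08 (adjusted p = 0.491).

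IQD28 (AT1G14380) had the next largest mutant difference among IQD genes, -0.17 ± 0.08 (SE; limma adjusted p = 0.63). It read 7.27, 7.24 and 7.34 on the overexpressor arrays, 7.35, 7.33 and 7.18 on the mutant arrays, and 7.60, 7.33 and 7.43 on the wild-type arrays, with overlap between genotypes. The 2 genes that fell in the overexpressor were close to wild type in the mutant. IQD26 differed by 0.06, with a 95% confidence interval from -0.09 to 0.22, and IQD16 by -0.04, with an interval from -0.21 to 0.14. Below 0 in the mutant were 10 of 17 IQD and 10 of 15 TRM genes (58.8% and 66.7%), against 49.6% of all probe sets. The other 7 IQD and 5 TRM genes were above 0. The highest of each family were the dim TRM33 at 0.25 ± 0.11 (SE; limma adjusted p = 0.61) and IQD27 at 0.16 ± 0.09 (adjusted p = 0.687). Family medians were -0.06 for IQD and -0.06 for TRM genes, against 0.00 for all probe sets. Single arrays moved them, the IQD median to -0.0162 without mutant replicate 2 and -0.0391 without mutant replicate 3, and the TRM median to -0.0338 without mutant replicate 2 and -0.0288 without wild-type replicate 2. Mutant arrays lay below wild type without overlap for 2 IQD and 3 TRM genes, and for 6.04% of all probe sets.

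The overexpressor and the mutant were then set against each other, which is the direct test of whether the altered lines differ from each other. IQD26 was lower in the overexpressor by -0.76 ± 0.07 (SE; limma adjusted p = 0.00281) and IQD16 by -0.43 ± 0.08 (adjusted p = 0.0349). These 2 of 17 IQD and 0 of 15 TRM probe sets were called lower, and 0 were called higher, while 0.857% of all probe sets were called lower and 1.83% in either direction. This comparison shares its overexpressor arrays with that against wild type, so the 2 results are not independent. Without adjustment 5 IQD and 3 TRM members had a p-value below 0.05, all lower, as did 8.1% of all probe sets, with 15.1% in either direction. IQD26 kept its call in each of 15 alternative fits (adjusted p between 0.00058 and 0.0177). IQD16 lost its call in all 6 refits without 1 array (adjusted p between 0.0822 and 0.12), after centring each array on its median (0.0741), after renewed quantile normalization (0.0506) and in a fit limited to these 6 arrays (0.055).

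Other members with overexpressor arrays below all mutant arrays did not pass this test. TRM22 stood at -0.35 ± 0.12 (SE; limma adjusted p = 0.228), IQD22 at -0.24 ± 0.08 (adjusted p = 0.192), IQD15 at -0.21 ± 0.06 (adjusted p = 0.14) and TRM30 at -0.18 ± 0.06 (adjusted p = 0.193). IQD22 (AT4G23060) read 7.36, 7.33 and 7.40 on the overexpressor arrays, 7.46, 7.67 and 7.69 on the mutant arrays, and 7.65, 7.52 and 7.48 on the wild-type arrays. Such separation held for 6 IQD and 4 TRM genes, and for 11.2% of all probe sets. The medians were -0.12 for IQD and -0.09 for TRM genes (-0.07 with TRM82 left out), against -0.01 for all probe sets. The IQD median was -0.0498 without mutant replicate 1 and -0.035 above the 25th percentile of the mean level. The TRM median was -0.024 without overexpressor replicate 3 and -0.0532 without mutant replicate 3, and -0.0563 with centred arrays and -0.0341 above the 50th percentile. IQD20, TRM25 and IQD32 had the arrays of both lines below all wild-type arrays. They differed between the lines by 0.06, 0.05 and -0.01, each within its SE. TRM23, also below wild type in both lines, differed by -0.12 ± 0.10 (SE; limma adjusted p = 0.633). IQD28, which overlapped wild type in both lines, differed between them by 0.00. A moderated F test over the 3 genotypes called IQD26 (adjusted p = 0.00353), IQD16 (adjusted p = 0.0381) and 0 TRM genes, with 1.53% of all probe sets called.

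**Figure D4:**
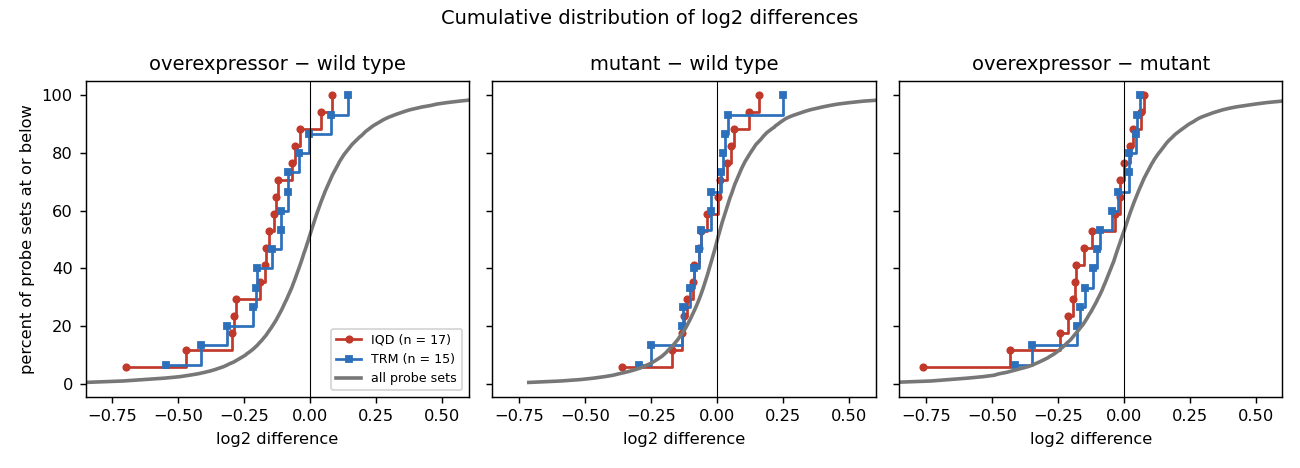
Cumulative percent of probe sets (y axis) at or below each log2 difference (x axis) for the 17 IQD genes, the 15 TRM genes and all probe sets, in the 3 comparisons. In overexpressor minus wild type the IQD and TRM curves lie left of the grey curve of all probe sets over most of their range, with medians of -0.16 and -0.11 against -0.01.

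By genotype means, the overexpressor was the lowest of the 3 for 11 of 17 IQD and 9 of 15 TRM genes (64.7% and 60.0%), and for 38.0% of all probe sets. Wild type was the highest for 10 IQD and 10 TRM genes, against 31.7% of all probe sets. The mutant was the lowest for 4 genes of each family (23.5% of IQD and 26.7% of TRM genes), against 31.6% of all probe sets. Among members, IQD15 and IQD21 lay near each other on chromosome 3, with 15 genes between them, and IQD23 and TRM25 on chromosome 5, with 11 between them. In the overexpressor against wild type, IQD15 stood at -0.28 and IQD21, a dim probe set with a mean of 3.33, at -0.07. IQD23 stood at -0.16 and TRM25 at -0.20.

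Partners, other microtubule genes, calmodulin-like genes and genes of dividing cells were taken from lists of 76 genes. Of these, 23 had a probe set with 1 gene, among them 6 calmodulin-like genes and 3 genes of dividing cells, described below. Katanin, SPIRAL2, TON1A, TON2 and the kinesin light chain-related and calmodulin partners of IQD proteins were not among the 23. In both comparisons with wild type 0 of the 23 were called, and the medians were -0.01 in the overexpressor and -0.03 in the mutant. Between overexpressor and mutant 1 was higher and 0 were lower, with 0.971% of all probe sets called higher. That gene was the beta-tubulin TUB5 (AT1G20010), a subunit of the microtubule itself, with 7.48 ± 0.14 in the overexpressor, 6.98 ± 0.12 in the mutant and 7.02 ± 0.09 in wild type (SD, n = 3). TUB5 was higher than in the mutant by 0.51 ± 0.09 (SE; limma adjusted p = 0.0438), and against wild type it stood at 0.46 ± 0.09 (adjusted p = 0.0723), opposite in sign to IQD26 and IQD16. Against wild type TUB5 passed with eBayes trend and robust (0.0473), above the 25th (0.0491) and the 50th percentile (0.0258), and among probe sets with 1 gene (0.0371). It did not pass there in the other 11 of 15 alternative fits. These included all 6 refits without 1 array (adjusted p between 0.0692 and 0.212) and a fit limited to the overexpressor and wild-type arrays (0.13). The call of TUB5 against the mutant was lost in 5 of 6 refits without 1 array (adjusted p between 0.0436 and 0.146 over the 6). It was also lost in a fit limited to the overexpressor and mutant arrays (0.119).

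The other 6 tubulins measured were between -0.11 and 0.24 in the overexpressor against wild type. TON1B (AT3G55005), which TRM proteins recruit, stood at -0.04 ± 0.08 (SE), and MAP65-6, of a family that cross-links microtubules, at -0.11 ± 0.07. SPIRAL1-like genes, named for a protein of microtubule plus ends, had 0 of 5 called and a median of 0.07, with SP1L4 (AT5G15600) at -0.28 ± 0.09 in the overexpressor (limma adjusted p = 0.211) and -0.32 ± 0.09 in the mutant (adjusted p = 0.439). Calmodulin-like genes had 0 of 6 called and a median of -0.01. CML23, CML37 and CML41, and SP1L2 and SP1L5 of the SPIRAL1-like genes, had genotype means below the lower quartile of every array. A change in such dim probe sets could be missed.

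Markers of other cells were read beside these results. Of 8 genes of dividing cells 3 were measured, the Aurora kinases AUR1 and AUR2 and the replication factor MCM7, and they stood at -0.09, 0.04 and -0.14 in the overexpressor against wild type with 0 called. Genotype means over these 3 lay between 8.39 and 10.20 in the overexpressor, 8.55 and 10.26 in the mutant, and 8.35 and 10.29 in wild type. The 4 root hair genes measured, of 6, had a median of -0.12 with 0 called. Of 5 root cap markers only RCPG (AT1G65570), which encodes a pectin-cleaving enzyme, was measured, and it rose by 1.57 ± 0.15 (SE; limma adjusted p = 0.00358), averaging 8.18 in the overexpressor and 6.60 in wild type. In the mutant it averaged 7.23. The part of the root cap in the falls of IQD26 and IQD16 was not tested. SWEET11, a sugar transporter of the phloem, stood at 0.84 ± 0.52 and the endodermal receptor SGN3 at -0.15 ± 0.06, neither called, and 0 of 4 xylem markers were measured. RCA and LHCB4.1, 2 of 7 shoot markers, stood at 0.14 and 0.00. The 63 genes of the plastid genome had 0 calls and a median of 0.01.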

How the data were processed

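The authors deposited 1 table of log2 values for 38408 probe sets on 9 single-channel arrays, used here without change. Of tools, the submitters' processing notes name RMA, a method that corrects background, normalizes between arrays and summarises probes, with no version. The precision of array data is limited here by 3 arrays per genotype. Names came from the platform annotation, in which 16722 probe sets had 1 gene, 759 had several and 20927 were not listed. RefSeq genes of TAIR10.1 gave family names and gene order only. One linear model per probe set was fitted across genotypes with limma 3.58.1 (R 4.3.3), leaving 6 residual degrees of freedom. Its variances were moderated by eBayes, and Benjamini-Hochberg adjustment covered the whole table. The fit was tested on simulated data. Values on every array are given for called members. In each family they are also given for the 3 largest falls and all rises (2 in each family) in the overexpressor, and for the 2 largest changes in the mutant. Members and gene lists were chosen with earlier results of these data known. The SPIRAL1-like and calmodulin-like lists were added because they had probe sets, and IQD15, IQD18, IQD22 and TRM30 were added after their values were seen. Alternative settings were a replicate block, eBayes with trend and robust, array weights, renewed quantile normalization, arrays centred on their medians, filters on dim probe sets, probe sets with 1 gene, the 6 arrays compared, and leaving out each array.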

Additional observations from a re-analysis of the deposited data

How the results depend on the processing

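Under 15 alternatives IQD26 kept its call in overexpressor minus wild type (log2 change -0.73 to -0.63) and in overexpressor minus mutant (-0.78 to -0.73). Called IQD genes numbered 1 in place of 2 in both comparisons with the replicate block, with centred arrays, with only the 6 arrays compared and in each refit without 1 array. In overexpressor minus mutant the number was also 1 after renewed quantile normalization (IQD16 adjusted p = 0.0506). Called TRM genes numbered 0 in all of these fits.

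Same-numbered arrays of different genotypes had deviations that correlated between -0.09 and 0.03, and differently numbered ones between -0.10 and 0.10. These values showed no pairing by repeat number, but with 3 arrays per genotype they cannot exclude one. With the replicate block 200, 1 and 347 probe sets were called in overexpressor minus wild type, mutant minus wild type and overexpressor minus mutant, in place of 520, 9 and 702. IQD16 then missed the threshold in overexpressor minus wild type (adjusted p = 0.0832) and overexpressor minus mutant (0.0753), and TUB5 in overexpressor minus mutant (0.0626). In the same order of comparisons, only the 6 arrays compared gave 249, 2 and 260 calls, and fits without 1 array gave 174 to 245, 1 to 6 and 295 to 510. Trend and robust gave 798 and 1107 for the comparisons with the overexpressor, and the filter at the 50th percentile of the mean gave 878 and 1211. Probe sets with 1 gene alone gave 1 for mutant minus wild type. The F test called 589, against 259 with the block, 903 with trend and robust, 1011 with the 50th percentile filter and 189 to 400 without 1 array. With centred arrays, overexpressor minus mutant split into 458 higher and 251 lower, in place of 373 and 329.

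The TRM median was -0.0897 in mutant minus wild type and -0.0563 in overexpressor minus mutant with centred arrays, and in overexpressor minus mutant -0.0668 and -0.0341 with the 25th and 50th percentile filters. The IQD median there was -0.035 with the 25th percentile filter. Without 1 array the TRM median ran from -0.1743 (without overexpressor replicate 1) to -0.0919 in overexpressor minus wild type. It ran from -0.0595 to -0.0288 (without wild-type replicate 2) in mutant minus wild type, and from -0.095 to -0.024 (without overexpressor replicate 3) in overexpressor minus mutant. The IQD median ran from -0.1664 to -0.1373, from -0.082 to -0.0162 (without mutant replicate 2), and from -0.145 to -0.0498 (without mutant replicate 1).

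Changes of sign touched only uncalled values near 0. In mutant minus wild type IQD25 was -0.0103 after renewed quantile normalization, -0.0235 with centred arrays and 0.00 to 0.0085 without 1 array. TRM34 was -0.0141 with centred arrays and -0.0263 to 0.0488 without 1 array. Without 1 array IQD16 was -0.0835 to 0.0388 and TRM22 -0.0482 to 0.1247. IQD27 was -0.0443 to 0.0907 in overexpressor minus wild type without 1 array. In overexpressor minus mutant IQD28 was -0.0078 with array weights and -0.0519 to 0.0331 without 1 array, and there IQD25 was -0.0027 to 0.1526 and TRM34 -0.0044 to 0.1059. The cause was not tested.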
